A study of Canis lupus familiaris with 24 samples.

Results

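The genes MAP1B, NPTX2, C1QL1 and STMND1 were near absent in untreated MDCK-NBL2 cells and abundant after TGFb, and they were chosen by symbol for that pattern. These 4 genes were among 32704 in the count table, and all 4 were among the 12466 that passed the filter on low counts. MDCK cells are epithelial cells from dog kidney, and MDCK-NBL2 and MDCK-II are lines of them. Stranded mRNA libraries, 24 in all, fell into 8 groups of 3. MDCK-NBL2 cells were collected at day 4 after TGFb with an siRNA against the transcription factor PRRX1 (siPRRX1), after TGFb with a control siRNA (siCTR), after TGFb alone, and untreated at day 4 and at day 0. MDCK-II cells were collected at day 4 after TGFb, and untreated at day 4 and at day 0. The labels call the MDCK-NBL2 cells with TGFb full EMT, and both the siPRRX1 cells and the MDCK-II cells with TGFb partial EMT. EMT is the epithelial-mesenchymal transition, in which epithelial cells give up their junctions and take on motile, matrix-producing features.

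MAP1B, NPTX2 and C1QL1 are known mainly from the nervous system. MAP1B binds microtubules and is a major microtubule-associated protein of growing axons. NPTX2 is a secreted neuronal pentraxin that gathers AMPA-type glutamate receptors at excitatory synapses. C1QL1 is a secreted protein with a C1q-like domain, which in the mouse binds the adhesion receptor ADGRB3 at cerebellar synapses. STMND1 carries a stathmin domain, the fold by which stathmins hold tubulin dimers. TGFb is a secreted cytokine that acts through a receptor kinase complex and SMAD proteins, and it drives EMT in many epithelial cells. PRRX1 is a homeodomain transcription factor of mesenchymal cells, and its knockdown asks which TGFb-induced levels depend on it.

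Total counts ran from 6134929 to 27567296 per library. Levels below are counts per 1000000 (CPM) on scaled library sizes, and they are not corrected for transcript length, so that levels of different genes are not compared. In these bulk libraries, more cells that carry a transcript and more transcript per cell cannot be told apart. Among the untreated MDCK-NBL2 libraries of day 4, the one labelled replicate 2 stood apart. On the first principal component, with 59.4% of the variance, it lay at 59.3, whereas replicates 1 and 3 of its group lay at -4.85 and -20.0 and all libraries of that line with TGFb lay between 80.7 and 98.7. Of 413 other genes that were over 3 log2 units higher with TGFb than in the other replicates of that group, the median stood in this library at 32.0% of its TGFb level. MDCK-NBL2 untreated day 0 replicate 1 also stood apart, since genes typical of the other line reached there, in the median, 9.19% of what they had in that line. In every other MDCK-NBL2 library that median was at most 0.668%. Results that rest on the first of these libraries are given also without it where a call, a count or a size changed.

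MAP1B (ENSCAFG00000007950) was at 746, 464 and 527 CPM in MDCK-NBL2 with TGFb alone, against 0.447, 33.8 and 0.803 CPM in untreated cells at day 4. At day 0 the untreated MDCK-NBL2 libraries had 5.40, 1.32 and 0.539 CPM. Every TGFb library was above every untreated one, and the highest untreated value was that of the library that stood apart. The mean was 579 ± 148 CPM with TGFb and 11.7 ± 19.1 CPM untreated at day 4 (SD, n = 3 each), a ratio of means of 49.6. Without the doubted library the ratio of counts was 1034, with an exact 95% counting interval of 654 to 1746.

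NPTX2 (ENSCAFG00000015333) was at 714, 501 and 450 CPM with TGFb alone, against 0.609, 71.3 and 0.574 CPM in untreated MDCK-NBL2 at day 4. Untreated day 0 libraries had 6.30, 2.05 and 1.48 CPM, with the highest value in the replicate that carried MDCK-II genes. The groups with and without TGFb did not overlap. The means were 555 ± 140 CPM with TGFb and 24.2 ± 40.8 CPM untreated at day 4, a ratio of means of 23.0. The ratio of counts was 16.7 with the doubted library and 899 without it, with a 95% counting interval of 582 to 1473.

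C1QL1 (ENSCAFG00000013945) was at 28.6, 16.8 and 7.97 CPM with TGFb alone, against 0.0406, 0.628 and 0.115 CPM in untreated MDCK-NBL2 at day 4. At day 0 it was at 0.139, 0.132 and 0 CPM. The TGFb libraries differed among themselves more than those of MAP1B or NPTX2, and none of them reached down to an untreated value. The means were 17.8 ± 10.3 CPM with TGFb and 0.261 ± 0.320 CPM untreated at day 4, a ratio of means of 68.1. Without the doubted library the untreated group held 2 counts in all, and the ratio of counts was 282 with a 95% counting interval of 77.6 to 2341.

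STMND1 (ENSCAFG00000009941) was at 20.7, 8.53 and 23.6 CPM with TGFb alone, against 0, 0.296 and 0 CPM in untreated MDCK-NBL2 at day 4. At day 0 it had 0.139, 0 and 0 CPM, from 2 counts in replicate 1. Its groups did not overlap either. The means were 17.6 ± 8.0 CPM with TGFb and 0.0986 ± 0.171 CPM untreated at day 4. Without the doubted library the untreated group had no count, and STMND1 was at least 185-fold higher with TGFb, taking a floor of 3 counts over the group.

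These differences are what the genes were chosen for, so that they describe the choice and carry no test. On the log2 scale of the model they were 5.57, 4.48, 5.84 and 7.0 for MAP1B, NPTX2, C1QL1 and STMND1. In this comparison 44.3% of all tested genes changed at an adjusted p under 0.05, with 21% up and 23.4% down, and the libraries of 22% of genes lay wholly higher with TGFb. In the doubted untreated library the 4 genes stood at 5.83%, 12.9%, 3.53% and 1.68% of their mean TGFb level. The median of the 413 genes described above was 32.0% there, with a lower quartile of 14.0%. The 4 genes were chosen as near absent in untreated MDCK-NBL2, so that their lower shares describe the choice as well. The 413 genes were taken by a different rule, over 3 log2 units, and can start from a higher untreated level.

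**Figure D1:**
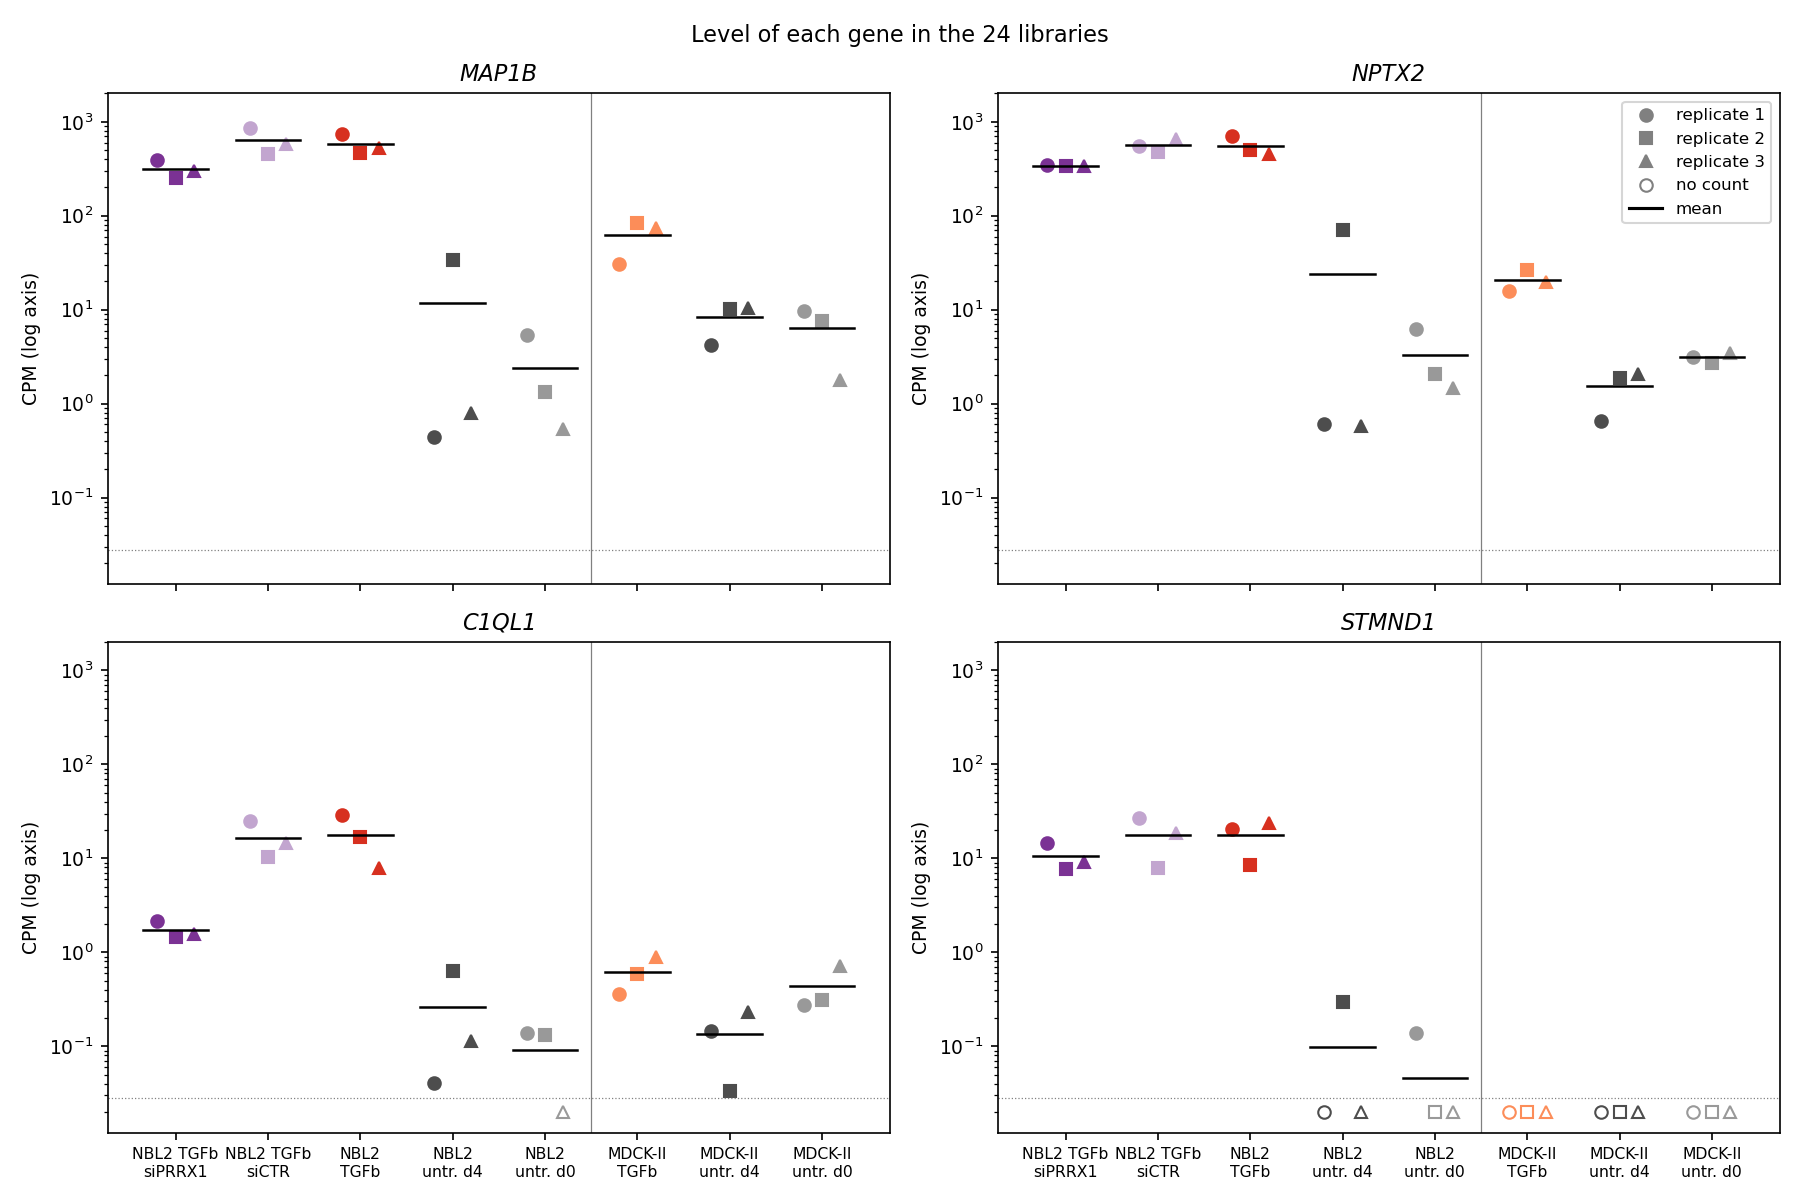
CPM (log axis) of MAP1B, NPTX2, C1QL1 and STMND1 in each of the 24 libraries, by group, with the replicate shown by the symbol, open symbols below the dotted line for libraries with no count, and black lines for group means. The 9 MDCK-NBL2 libraries with TGFb lie above every untreated MDCK-NBL2 library in each panel, and STMND1 has no count in any of the 9 MDCK-II libraries.

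The word neuronal in the working name of these genes was checked against neuronal markers. Of 21 pan-neuronal markers in the table, 12 had no count in any of the 3 MDCK-NBL2 libraries with TGFb alone, and 8 had none in the untreated day 4 libraries. Markers without a count in both groups were RBFOX3, ELAVL2, SYP, NEFL, NEFM, NEFH, INA and NCAM1, which include the nuclear marker of mature neurons, a synaptic vesicle protein and the neurofilament chains. The summed level of the list was 1042 to 1325 CPM with TGFb and 507 to 769 CPM untreated, most of it from the adhesion molecule L1CAM at 1132 ± 149 CPM with TGFb and 655 ± 139 CPM untreated. ADGRB3, the receptor for C1QL1, and the AMPA receptor genes GRIA1, GRIA2, GRIA3 and GRIA4 had no count in either group. These markers go against the word neuronal in that name, although L1CAM, UCHL1 and GAP43 of the same list rose with TGFb, and the genes are called here by their symbols.

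The siRNA comparison asked how the 4 genes stood in TGFb-treated cells when PRRX1 was knocked down. The targeted gene was lower in the labelled libraries. PRRX1 was at 1.11, 0.339 and 0 CPM with siPRRX1, against 33.9, 7.35 and 3.88 CPM with siCTR. No siPRRX1 library reached a siCTR value, although PRRX1 differed widely among the siCTR libraries. The log2 fold change was -4.64 with an SE of 1.17 (edgeR quasi-likelihood test, adjusted p = 0.0435 over all genes). With TGFb alone PRRX1 was at 37.2, 8.89 and 5.71 CPM, so that replicate 1 was the highest in both groups.

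C1QL1 fell with siPRRX1, and it was the only one of the 4 genes called in the fit over all libraries. It was at 2.17, 1.47 and 1.55 CPM with siPRRX1, against 24.7, 10.4 and 14.4 CPM with siCTR. The highest siPRRX1 library was well below the lowest siCTR library. The means were 1.73 ± 0.383 CPM with siPRRX1 and 16.5 ± 7.38 CPM with siCTR (SD, n = 3 each), so that 10.5% of the siCTR level remained. The log2 fold change was -3.22 with an SE of 0.54, a 95% interval of -4.35 to -2.10 and an adjusted p of 0.00312 in edgeR's quasi-likelihood test. The remaining level was above the untreated one, which is a description, since the choice of the genes fixed low untreated MDCK-NBL2 values. All siPRRX1 libraries were higher than the untreated MDCK-NBL2 libraries and than those of MDCK-II, whose highest value was 0.893 CPM.

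MAP1B was at 396, 250 and 303 CPM with siPRRX1, against 859, 453 and 585 CPM with siCTR. All siPRRX1 libraries were below all siCTR libraries, with replicate 1 the highest in both groups. The means were 316 ± 73.9 CPM with siPRRX1 and 633 ± 207 CPM with siCTR, so that 50.0% remained. The log2 fold change was -1.0 with an SE of 0.86 and a 95% interval of -2.80 to 0.80, and it was not called (edgeR, adjusted p = 0.654). In the edgeR fit of only these 6 libraries it was called (-0.99, adjusted p = 0.0344), and with the replicate number as a block as well it was -0.97 (adjusted p = 0.000106). These fits called 10.3% of all tested genes without the block and 22.5% with it.

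NPTX2 was at 351, 340 and 336 CPM with siPRRX1, against 550, 479 and 649 CPM with siCTR. The siPRRX1 libraries lay close together and below every siCTR library. The means were 342 ± 7.89 CPM with siPRRX1 and 559 ± 85.4 CPM with siCTR, and 61.2% remained. The log2 fold change was -0.71 with an SE of 0.88 and a 95% interval of -2.55 to 1.13 (edgeR, adjusted p = 0.785). In the edgeR fit of only these 6 libraries it was -0.70 (adjusted p = 0.0081), and -0.69 with the replicate block (adjusted p = 0.00119), where 10.3% and 22.5% of all tested genes were called.

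STMND1 was at 14.6, 7.80 and 9.18 CPM with siPRRX1, against 27.2, 7.99 and 18.4 CPM with siCTR. The groups overlapped, since siCTR replicate 2 was lower than the siPRRX1 replicates 1 and 3. The means were 10.5 ± 3.59 CPM with siPRRX1 and 17.9 ± 9.60 CPM with siCTR, and the log2 fold change was -0.77 with an SE of 0.54 and a 95% interval of -1.94 to 0.40 (edgeR, adjusted p = 0.572). It was -1.11 without siCTR replicate 2 and -0.31 without siCTR replicate 1, the extremes of the fits without single libraries, and was called in none of them. Within each replicate number the siPRRX1 library was the lower one. The edgeR fit of only these 6 libraries gave -0.78 (adjusted p = 0.227, not called), and -0.73 with the replicate block (adjusted p = 0.0176). That blocked fit was the only alternative that called STMND1, and it called 22.5% of all tested genes.

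So 1 of the 4 genes was called lower with siPRRX1, where 1.19% of all tested genes were called lower, 0.81% higher and 2% in either direction. The siPRRX1 libraries lay wholly below the siCTR libraries for 3 of the 4 genes, and for 16.4% of all tested genes. The spread behind the SE of MAP1B and NPTX2 is estimated over all 24 libraries. Without the library that stood apart, the SE fell to 0.46 for MAP1B and 0.29 for NPTX2, with adjusted p-values of 0.245 and 0.177 in edgeR, and of 0.160 and 0.0533 without the day 0 replicate as well. Without that library 3.24% of genes were called lower and 1.97% higher, and C1QL1 (adjusted p = 0.000257) was still the only one of the 4 among them. The labels carry 2 series of library numbers. In the series with replicate 1 of both groups, the siPRRX1 level was 46.1% of siCTR for MAP1B, 63.8% for NPTX2, 8.79% for C1QL1 and 53.7% for STMND1. In the series with replicates 2 and 3, these shares were 53.3%, 59.9%, 12.2% and 64.2% in the same order of genes.

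**Figure D2:**
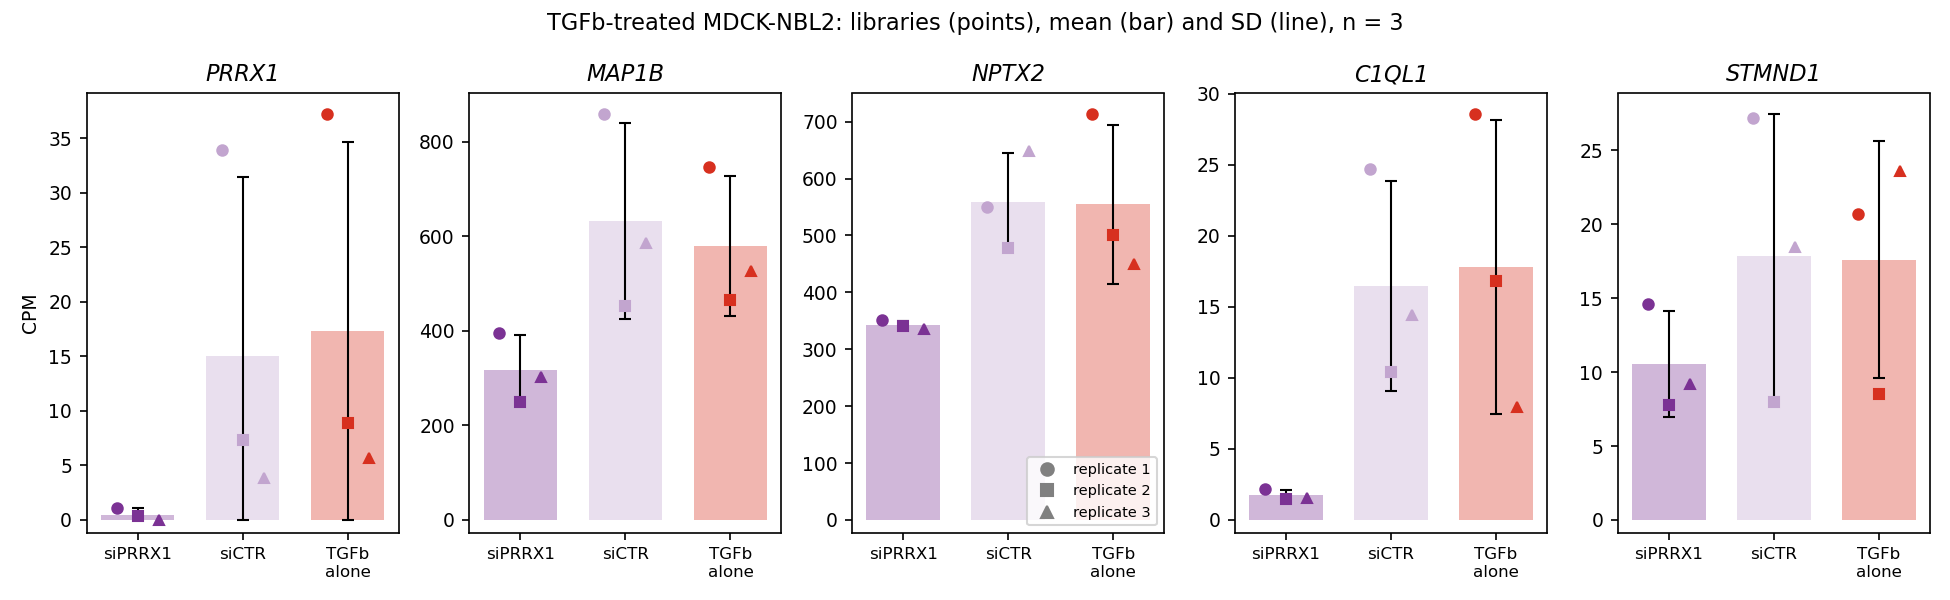
CPM of PRRX1, MAP1B, NPTX2, C1QL1 and STMND1 in TGFb-treated MDCK-NBL2 cells with siPRRX1, with siCTR and with TGFb alone, as library values (points, replicate by symbol), means (bars) and SD (lines, cut at 0), with a separate axis for each gene. C1QL1 is at 1.47 to 2.17 CPM with siPRRX1 and at 10.4 CPM or more with siCTR, while MAP1B and NPTX2 keep 50.0% and 61.2% of the siCTR mean.

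C1QL1 was lower with siPRRX1 relative to the other 3 genes within each library. These ratios reuse the counts behind the levels given above, so that they add no separate support. For every 100 counts of MAP1B there were 0.548, 0.586 and 0.514 counts of C1QL1 with siPRRX1, against 2.87, 2.29 and 2.46 with siCTR. For every 100 counts of NPTX2 there were 0.618, 0.432 and 0.463 with siPRRX1, against 4.49, 2.17 and 2.22 with siCTR. For every 100 counts of STMND1 there were 14.9, 18.8 and 16.9 with siPRRX1, against 90.9, 130.0 and 78.1 with siCTR. The groups did not overlap in any of these 3 ratios. A two-sided exact permutation test gave p = 0.1 for each, which is the smallest that 3 libraries against 3 allow, so that this design cannot pass 0.05.

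**Figure D3:**
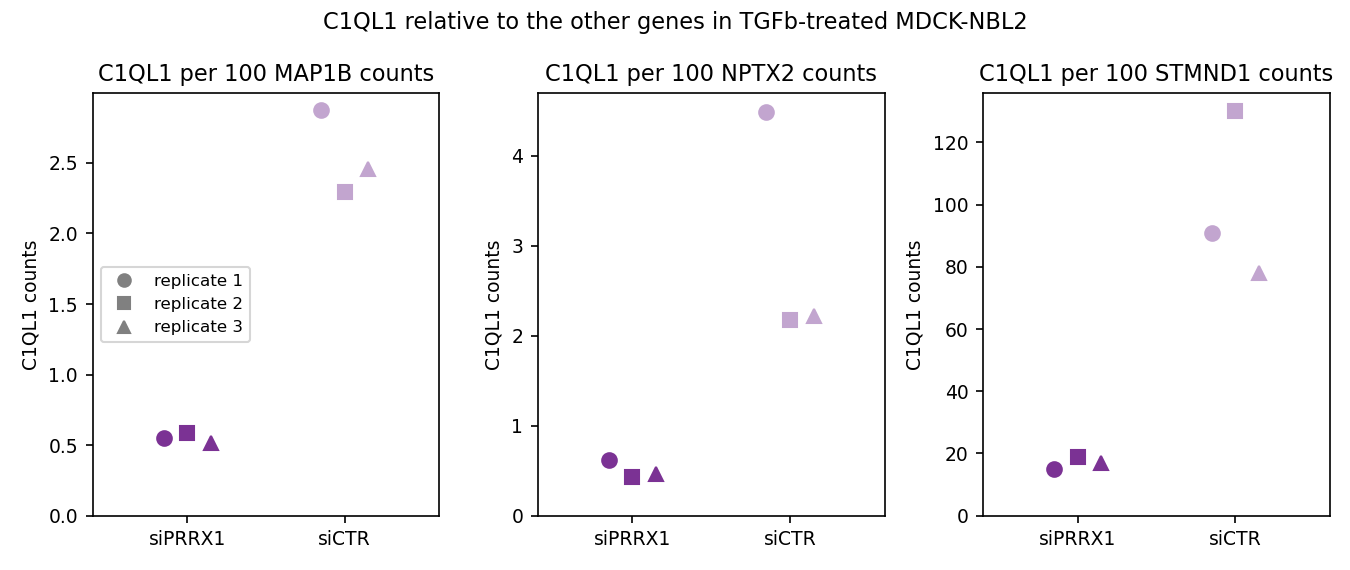
C1QL1 counts per 100 counts of MAP1B, NPTX2 and STMND1 in the 3 libraries with siPRRX1 and the 3 with siCTR, each axis starting at 0. The siPRRX1 libraries lie at 0.514 to 0.586 per 100 MAP1B counts, below the siCTR libraries at 2.29 to 2.87.

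Markers of other cells and TGFb response genes were measured in the same libraries. The 8 kidney epithelial markers summed to 1810 to 2364 CPM with siPRRX1 and to 1245 to 1565 CPM with siCTR, and of them CDH1, the main adhesion molecule of epithelia, rose (1364 ± 201 CPM with siPRRX1, 852 ± 109 CPM with siCTR, edgeR adjusted p = 0.0327). The 10 TGFb response genes summed to 33100 to 48080 CPM with siPRRX1 and to 49040 to 54495 CPM with siCTR, with none called. With TGFb alone most of their sum of 40315 to 66968 CPM came from FN1, at 51530 ± 13672 CPM. FN1 changed by -0.41 with siPRRX1 in the fit without the library that stood apart, and was not called (edgeR adjusted p = 0.503). Without the library that stood apart 1 of the 10, the TGFb-induced gene PMEPA1, was called lower with siPRRX1 (-0.57, edgeR adjusted p = 0.0125). Markers of fibroblasts, endothelium and leukocytes summed to 9.26 to 11.8 CPM with siPRRX1 and to 11.2 to 14.3 CPM with siCTR, with none called and with PDGFRB, PECAM1, PTPRC and CD3E at 0 in both. Their part in the levels of the 4 genes was not tested. Replicate 1, with the highest PRRX1 of its group in siCTR and in TGFb alone, also had the highest C1QL1 and MAP1B in both of these groups. NPTX2 was highest in siCTR replicate 3 and STMND1 in replicate 3 of TGFb alone. That comparison is over 3 libraries a group and was not tested.

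Between the control siRNA and TGFb alone none of the 4 genes was called. Every same-numbered pair of libraries in this comparison crosses the series of library numbers. MAP1B was at 633 ± 207 CPM with siCTR and 579 ± 148 CPM with TGFb alone, NPTX2 at 559 ± 85.4 and 555 ± 140 CPM, C1QL1 at 16.5 ± 7.38 and 17.8 ± 10.3 CPM, and STMND1 at 17.9 ± 9.60 and 17.6 ± 8.0 CPM in the same order of groups. The log2 fold changes were 0.13, 0.01, -0.08 and 0.05, all with an adjusted p of 1 in edgeR. Their 95% intervals were -1.66 to 1.91 for MAP1B, -1.82 to 1.84 for NPTX2, -1.06 to 0.90 for C1QL1 and -1.12 to 1.21 for STMND1, which span changes of either sign. Of all tested genes 0% were called by edgeR, and DESeq2 also called 0. At an unadjusted p under 0.05 edgeR had 212 genes and DESeq2 176.

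In MDCK-II, TGFb raised MAP1B and NPTX2. The choice of the genes named untreated MDCK-NBL2 cells and high levels with TGFb. Earlier results of these data were known, so the MDCK-II values may not be independent of that choice. MAP1B was at 30.5, 83.3 and 73.3 CPM with TGFb, against 4.25, 10.3 and 10.5 CPM untreated at day 4. The lowest TGFb library was above the highest untreated one. The means were 62.4 ± 28.0 CPM with TGFb and 8.35 ± 3.55 CPM untreated (SD, n = 3 each), with a log2 fold change of 2.90, an SE of 0.95 and an adjusted p of 0.0368 in edgeR. This call was lost in the edgeR fits without any one of the untreated libraries, without TGFb replicate 2 and without TGFb replicate 3, with adjusted p-values of 0.0823 to 0.106. Without the library of the other line that stood apart, the adjusted p was 0.000383.

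NPTX2 was at 15.8, 26.6 and 19.6 CPM with TGFb in MDCK-II, against 0.648, 1.85 and 2.08 CPM untreated. These groups did not overlap. The means were 20.7 ± 5.46 CPM with TGFb and 1.53 ± 0.769 CPM untreated, with a log2 fold change of 3.76, an SE of 1.12 and an adjusted p of 0.0233 in edgeR. The call was lost without any one of the untreated libraries and without TGFb replicate 2 (adjusted p of 0.0570 to 0.0702), and without the library that stood apart the adjusted p was 9.49e-07.

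C1QL1 was at 0.361, 0.584 and 0.893 CPM with TGFb in MDCK-II, against 0.144, 0.0331 and 0.231 CPM untreated. The groups did not overlap, but they rest on 28 counts with TGFb and 5 untreated. The log2 fold change was 2.48 with an SE of 0.93 and a 95% interval of 0.55 to 4.42, given as a description. It was 1.69 without untreated replicate 2 and 2.49 without the library that stood apart. Its p-values in MDCK-II are left out, since it passed the filter on low counts through the MDCK-NBL2 libraries with TGFb. STMND1 had no count in any of the 9 MDCK-II libraries, which allows a level of up to 0.0202 CPM over them, a limit from counting error alone.

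In MDCK-II, then, MAP1B and NPTX2 were called higher with TGFb, where 11.8% of all tested genes were called higher, 9.27% lower and 21.1% in either direction. The TGFb libraries lay wholly above the untreated ones for both, and for 20.3% of all tested genes. C1QL1 passed the filter on low counts through the MDCK-NBL2 libraries with TGFb, and on the MDCK-II libraries alone it was not tested, so that it is left out of these counts. The level reached with TGFb was lower in MDCK-II than in MDCK-NBL2, where the genes had been chosen for it. The MDCK-NBL2 mean was 9.29 times the MDCK-II mean for MAP1B, 26.8 times for NPTX2 and 29.0 times for C1QL1, and at least 264 times for STMND1. Since the choice fixed the MDCK-NBL2 values, these ratios are a description. The siPRRX1 cells, like TGFb-treated MDCK-II cells labelled partial EMT, had 5.07 times the MDCK-II TGFb mean of MAP1B, 16.6 times that of NPTX2 and 2.83 times that of C1QL1.

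**Figure D4:**
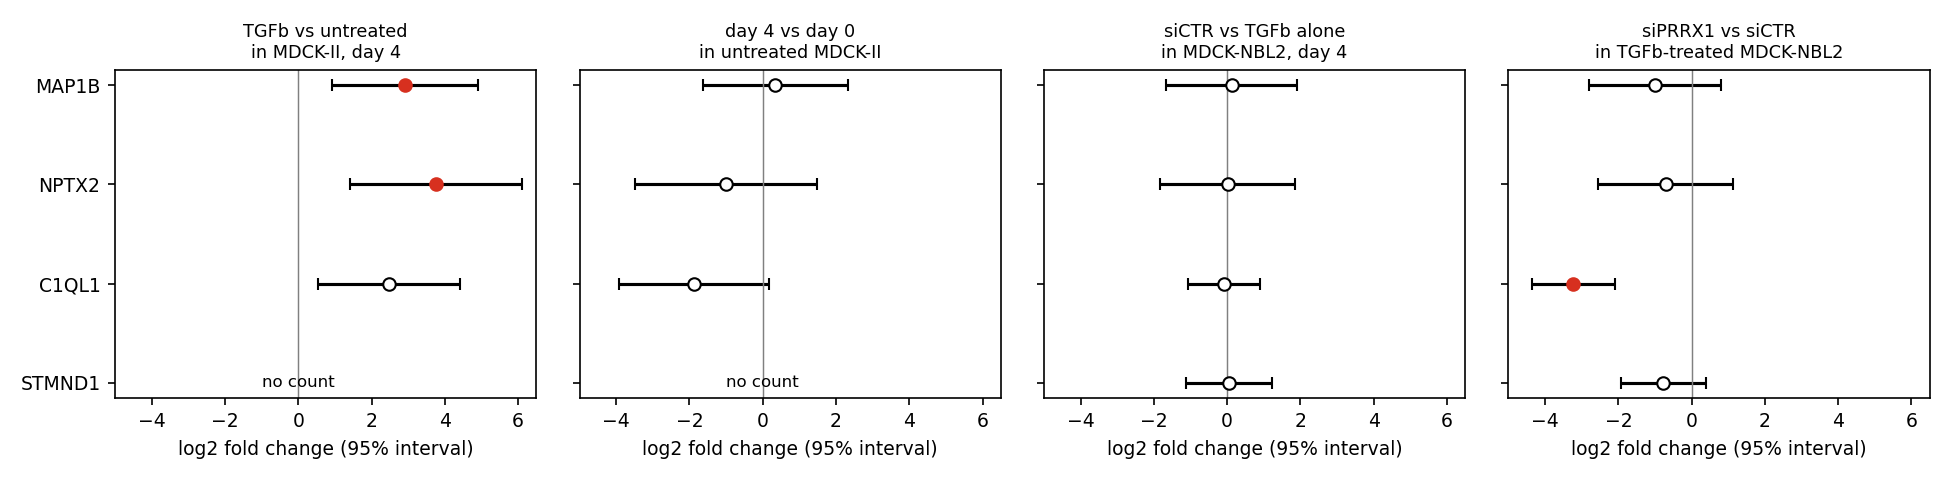
Log2 fold changes with 95% intervals of the 4 genes in the 4 comparisons other than TGFb against untreated MDCK-NBL2. Filled points have an adjusted p under 0.05, and open points are genes that were not called. C1QL1 passed the filter through MDCK-NBL2 with TGFb, so its MDCK-II points are a description. MAP1B and NPTX2 are called with TGFb in MDCK-II and C1QL1 with siPRRX1, and no gene is called between the control siRNA and TGFb alone or between the days.

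Between day 4 and day 0 of untreated MDCK-II, MAP1B and NPTX2 were not called, and STMND1 had no count. MAP1B was at 4.25, 10.3 and 10.5 CPM at day 4, against 9.59, 7.54 and 1.80 CPM at day 0, with overlapping groups (log2 fold change 0.35, SE 0.95, 95% interval -1.63 to 2.33, edgeR adjusted p = 0.855). NPTX2 was at 0.648, 1.85 and 2.08 CPM at day 4, against 3.11, 2.71 and 3.48 CPM at day 0, without overlap (log2 fold change -0.99, SE 1.19, 95% interval -3.48 to 1.49, edgeR adjusted p = 0.630). C1QL1 was at 0.144, 0.0331 and 0.231 CPM at day 4, against 0.276, 0.314 and 0.720 CPM at day 0, from 5 and 18 counts, also without overlap (log2 fold change -1.87, SE 0.99, 95% interval -3.93 to 0.18). In this comparison 9.81% of all tested genes were called. C1QL1 had again passed the filter only through other groups, so that its p-value is left out. The untreated libraries of 22.7% of all tested genes lay wholly lower at day 4.

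Ranked by mean, the groups fell in the same broad order for the 4 genes. The choice of the genes fixed high ranks with TGFb and low ranks untreated in MDCK-NBL2, so that this order is a description. The 3 MDCK-NBL2 groups with TGFb held the highest ranks, and siCTR and TGFb alone overlapped for every gene. The siPRRX1 group came next, overlapping the group above it only for STMND1. MDCK-II with TGFb was the next for MAP1B and C1QL1, while for NPTX2 the untreated day 4 MDCK-NBL2 group ranked above it through the doubted library. Among the untreated groups neighbouring ranks overlapped, except that NPTX2 was higher in every MDCK-II day 0 library than in any MDCK-II day 4 library. In the MDCK-NBL2 day 0 replicate that carried MDCK-II genes, MAP1B and NPTX2 stood at 85.6% and 203% of their MDCK-II day 0 mean. PRRX1 was at 7.07 CPM in that library.

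Genes of the same families and pathways were examined as fixed lists. Of 20 microtubule and stathmin genes in the table, 12 were tested. In MDCK-NBL2 with TGFb 8 of the 12 rose and 2 fell, with a median log2 fold change of 1.0 (1.5 without the library that stood apart) against -0.04 over all tested genes. MAP2, the microtubule-associated protein of dendrites, rose to 126 ± 25 CPM with TGFb, against 32.3 ± 17.2 CPM untreated (log2 fold change 1.96, SE 0.38, edgeR adjusted p = 0.000535, and 2.49 without the library that stood apart). DCLK1, a microtubule-binding kinase, rose by 2.47 to 5.05 ± 0.597 CPM, against 0.832 ± 0.656 CPM untreated (edgeR adjusted p = 0.000596), and by 3.47 without that library. STMN1, the widely expressed stathmin that destabilises microtubules, fell to 19.0 ± 1.75 CPM, against 61.6 ± 21.4 CPM untreated (log2 fold change -1.69, edgeR adjusted p = 2.52e-05). MAP1S, a member of the MAP1 family with MAP1B, fell by 1.0 on the log2 scale to 45.7 ± 3.96 CPM, against 91.5 ± 22.9 CPM untreated (edgeR adjusted p = 8.96e-05).

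In MDCK-II with TGFb 2 of the same 12 genes rose and 2 fell, with a median of 0.25 against -0.03 over all tested genes. TUBB2A, a beta tubulin, rose to 1168 ± 95 CPM, against 397 ± 90.6 CPM untreated (edgeR adjusted p = 0.00196). DPYSL3, which binds tubulin and acts in axon growth, rose to 1421 ± 175 CPM, against 316 ± 69.6 CPM untreated (edgeR adjusted p = 0.00217). Without the library that stood apart, 5 of the 12 rose and 2 fell in MDCK-II, where 16.1% of all tested genes then rose and 14.6% fell. With siPRRX1 1 of the 12 changed: DPYSL2, which carries tubulin in growing axons, fell to 130 ± 29.1 CPM with siPRRX1, against 263 ± 33.6 CPM with siCTR (log2 fold change -1.01, edgeR adjusted p = 0.0437). Without the doubted library 2 of the 12 fell.

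Of 22 pentraxin, C1q-like and synaptic partner genes in the table, 15 had no count with TGFb alone in MDCK-NBL2, and 15 had none untreated. They included C1QL2 and the cerebellins CBLN1, CBLN2 and CBLN4. Only 3 genes of this list were tested, with a median log2 fold change of 1.59, and 0 of 3 changed in MDCK-NBL2 with TGFb. Without the library that stood apart all 3 rose, where 27.1% of all tested genes then rose and 27.7% fell. They were NPTX1, the neuronal pentraxin closest to NPTX2 (1.37 ± 1.17 CPM with TGFb and 0.222 ± 0.384 CPM untreated, all libraries), the receptor ADGRB2 (3.1 ± 1.03 and 0.906 ± 1.33 CPM) and the synaptic adhesion molecule NLGN2 (14.2 ± 0.952 and 9.70 ± 2.16 CPM). With all libraries none of the 3 was called in MDCK-II or with siPRRX1, and without that library ADGRB2 rose in MDCK-II. NPTX1 had no count in MDCK-II with or without TGFb.

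Of 6 tested pan-neuronal markers, 3 rose and 1 fell in MDCK-NBL2 with TGFb. L1CAM rose by 0.79 (edgeR adjusted p = 0.00169), and the deubiquitinase UCHL1 rose to 15.3 ± 4.19 CPM, against 4.20 ± 3.04 CPM untreated (edgeR adjusted p = 0.0254), with a log2 fold change of 1.86, or 2.67 without the library that stood apart. GAP43, a growth cone protein, was at 1.05 ± 0.762 CPM with TGFb and 0.0493 ± 0.0854 CPM untreated (edgeR adjusted p = 0.0258). ENO2, the neuronal enolase, fell to 1.11 ± 0.120 CPM, against 4.23 ± 2.16 CPM untreated (edgeR adjusted p = 0.00337). In MDCK-II 3 of these 6 rose with TGFb, among them L1CAM at 904 ± 63.6 CPM against 558 ± 118 CPM untreated and the vesicle protein SV2A at 1.38 ± 0.235 CPM against 0.296 ± 0.0646 CPM untreated (edgeR adjusted p = 0.0105 and 0.0164). With siPRRX1 none of the 6 was called.

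Of 24 tested axon guidance and neurotrophin genes, 1 rose and 3 fell in MDCK-NBL2 with TGFb, and 3 rose and 4 fell without the library that stood apart. The ephrin receptor EPHB2 rose to 207 ± 49.0 CPM, against 71.5 ± 72.7 CPM untreated, and the guidance ligand SLIT2 fell to 0.665 ± 0.457 CPM, against 4.08 ± 4.33 CPM untreated (edgeR adjusted p = 0.0206 and 0.00575). The log2 fold change of EPHB2 was 1.52, or 2.81 without that library. In MDCK-II 6 of the 24 rose and 2 fell, or 7 and 3 without that library, with SLIT3 at 16.5 ± 4.33 CPM with TGFb against 0.661 ± 0.314 CPM untreated (edgeR adjusted p = 0.000601). With siPRRX1 the netrin receptor UNC5B rose to 32.5 ± 3.47 CPM, against 15.4 ± 1.62 CPM with siCTR, and the semaphorin receptor NRP2 fell to 138 ± 46.0 CPM, against 365 ± 56.7 CPM with siCTR (edgeR adjusted p = 0.0341 and 0.0173). Without the library that stood apart 2 rose and 2 fell.

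Of 16 neural transcription factors in the table, 10 had no count with TGFb alone in MDCK-NBL2, and 6 were tested. In that comparison 2 of the 6 rose and 0 fell, while without the library that stood apart 3 of 7 tested rose and 1 fell, the REST cofactor gene RCOR2 (edgeR adjusted p = 0.0430). REST, a repressor of neuronal genes in other cells, rose to 71.5 ± 8.05 CPM, against 47.3 ± 3.89 CPM untreated (log2 fold change 0.59, edgeR adjusted p = 0.000447). SOX2 rose to 26.2 ± 4.09 CPM, against 13.5 ± 4.95 CPM untreated (edgeR adjusted p = 0.00149). Both also rose in MDCK-II, REST to 36.9 ± 2.76 CPM against 25.8 ± 2.09 CPM untreated and SOX2 to 24.8 ± 2.58 CPM against 7.59 ± 0.896 CPM untreated (edgeR adjusted p = 0.00414 and 8.16e-05). Neither was called with siPRRX1.

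**Figure D5:**
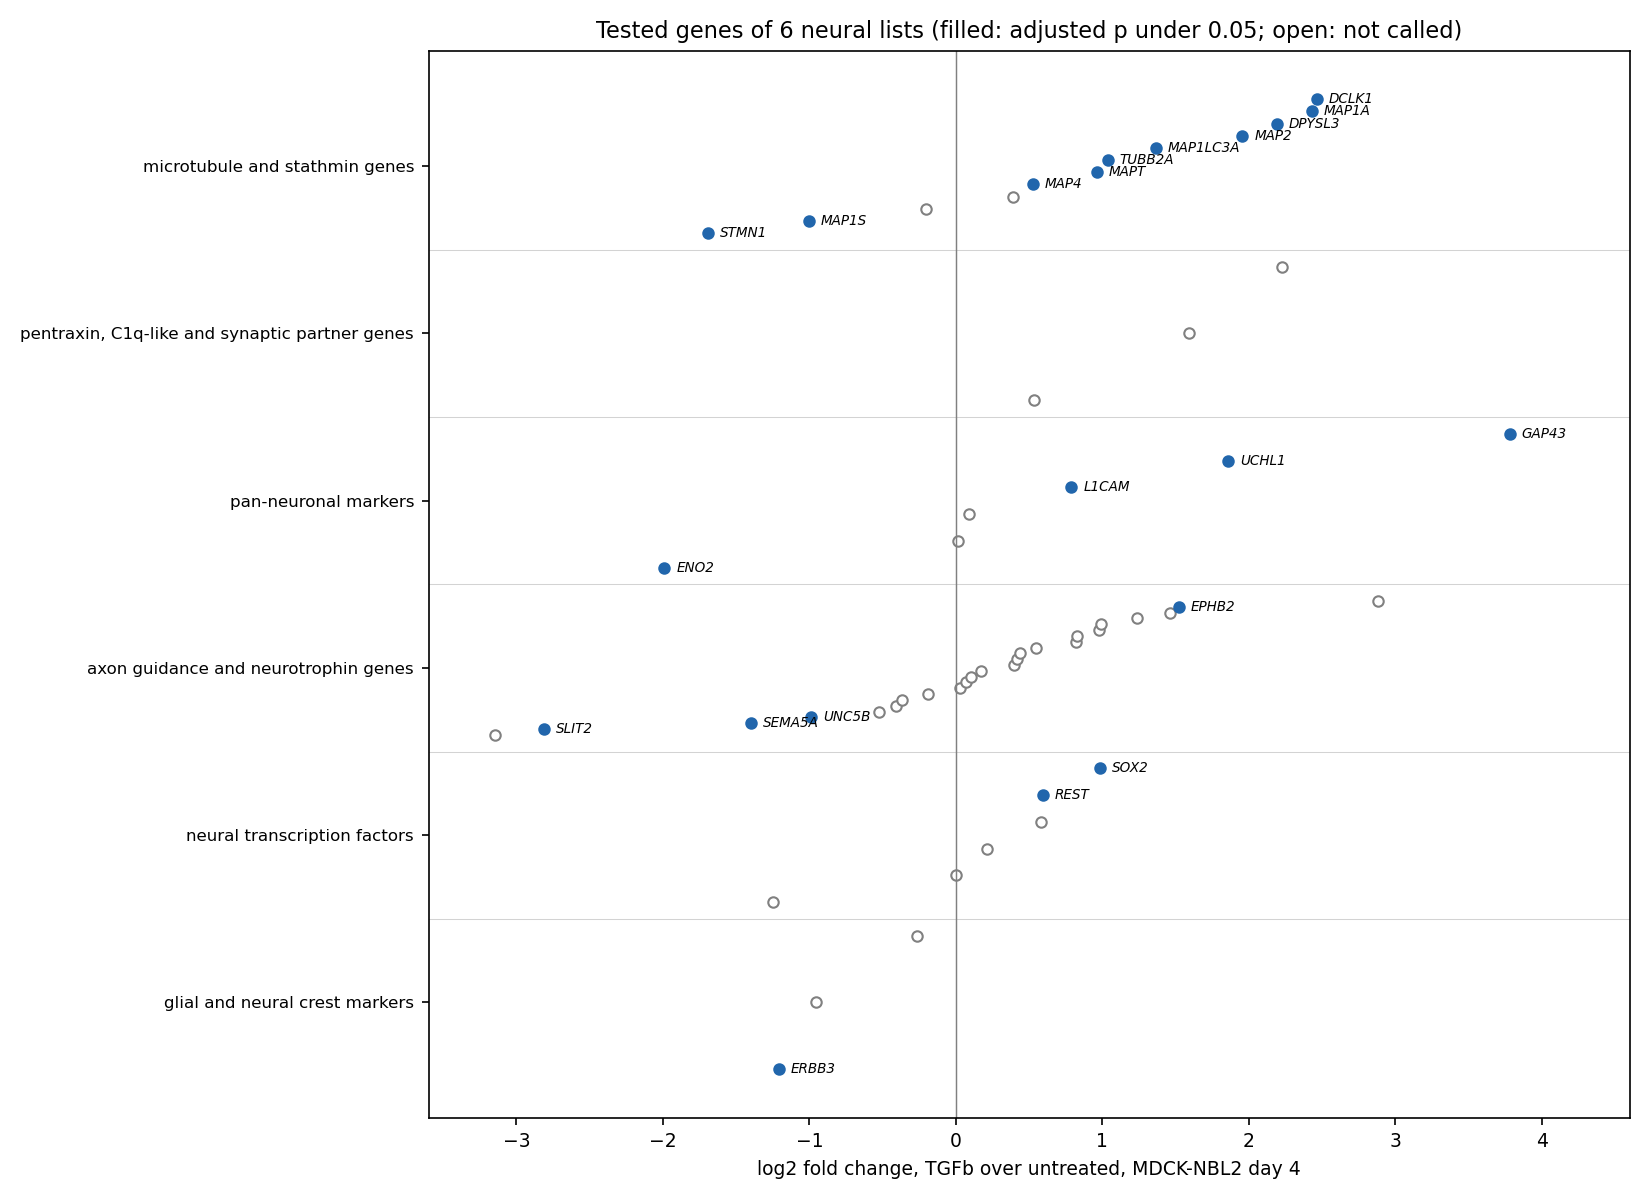
Log2 fold change with TGFb over untreated in MDCK-NBL2 at day 4 for each tested gene of the 6 neural lists, with filled points and names for an adjusted p under 0.05 and open points for genes not called. The microtubule and stathmin list has 8 genes to the right and 2 to the left among those called, and the pentraxin, C1q-like and synaptic partner list has 3 tested genes and no call.

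Lists for other cells moved in the same comparison. Of 8 kidney epithelial markers 4 fell and 1 rose in MDCK-NBL2 with TGFb (5 and 1 without the library that stood apart), with EPCAM at 238 ± 22.7 CPM against 584 ± 70.4 CPM untreated (edgeR adjusted p = 0.000111), and the list summed to 1407 to 1573 CPM with TGFb and 1899 to 3033 CPM untreated. Of 3 tested glial and neural crest markers 1 fell, the receptor ERBB3, which was not called without the library that stood apart (edgeR adjusted p = 0.0804). In that fit SOX10, a transcription factor of neural crest and glia, was the 1 called lower (-1.03, edgeR adjusted p = 0.0344). Of 4 tested markers of fibroblasts, endothelium and leukocytes 2 rose, LUM at 2.36 ± 2.11 CPM with no untreated count and KDR at 1.34 ± 0.583 CPM against 0.382 ± 0.121 CPM untreated. Of 10 TGFb response genes 3 rose in MDCK-NBL2, and 8 without the library that stood apart, while 7 rose in MDCK-II in both fits. How these lists bear on the 4 genes was not tested.

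For each gene the 5 genes with the most similar profile were taken by Pearson's r of log2 CPM over the 24 libraries. These libraries fall into treated and untreated clusters, so that r mostly measures a shared difference between them, and it is given as a description. MAP1B was most like CMAS, ATP6V0E1, RTN4, ROS1 and MFGE8, with r of 0.969 to 0.972. NPTX2 was most like PSME4, CD151, PALLD, KCTD10 and HMCN1, with r of 0.983 to 0.986. C1QL1 was most like DYNC1I1, an intermediate chain of cytoplasmic dynein, at an r of 0.958, and then WDFY3, VPS13A, KCNMB1 and LRRC32, the last at 0.942. DYNC1I1 was at 0.709 CPM with siPRRX1 and 2.32 CPM with siCTR, and LRRC32, which holds latent TGFb at the cell surface, at 0.392 and 1.41 CPM in that order.

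STMND1 was most like the matrix genes LTBP2 (r = 0.990) and FBN1 (0.986), with SLC8A3, a sodium-calcium exchanger, GASK1B and TGM3 between 0.980 and 0.989. SLC8A3 was at 20.8 CPM with siPRRX1 and 127 CPM with siCTR, and like STMND1 it had no count in MDCK-II with TGFb. Without the library that stood apart, 4, 4, 3 and 4 of the 5 genes were named again for MAP1B, NPTX2, C1QL1 and STMND1. Among the 4 genes themselves r ran from 0.867, between MAP1B and STMND1, to 0.955, between MAP1B and NPTX2.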

How the data were processed

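The authors' deposited table held raw counts per gene, as whole numbers, for 24 libraries. STAR 2.5.3a, RSEM 1.3.0, FastQC and the dog build CanFam3.1 are named, per the submitters' processing notes, without a role or order. CPM were computed from the deposited counts on TMM-scaled library sizes. R 4.3.3 and edgeR 4.0.16 gave quasi-likelihood F tests in 1 model with a mean per group over all 24 libraries (16 residual degrees of freedom). FilterByExpr (minimum count 10, minimum total 15) left 12466 genes. P-values were adjusted by Benjamini-Hochberg over those genes, with a call under 0.05, and the method was tested on simulated data. Each SE is the absolute log2 fold change divided by the root of F. Count intervals are exact at 95% and cover counting error only.

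The 4 genes and the 9 lists (166 genes, 150 of them in the table) were chosen with earlier results of these data known. The text names PRRX1 and, per list, up to 4 called genes of smallest adjusted p for TGFb in MDCK-NBL2 and up to 2 in each other comparison. NPTX1, ADGRB2, NLGN2, RCOR2, SOX10, PMEPA1, the genes named from fits without a library and list members without counts were named after their values were seen. Replicates are numbered in the labels but not said to be separate cultures, so p-values reflect differences between libraries, which may be technical. Same-numbered libraries deviated together from their group means for siPRRX1 and siCTR (r of 0.343, 0.189 and 0.164 for numbers 1, 2 and 3). The same held for MDCK-II with and without TGFb (0.421, 0.251 and 0.295). The main model holds no term for these pairs, which enter only in the alternatives with a replicate block. For siPRRX1 and siCTR, number 1 belongs to a different series of library numbers than 2 and 3, so pairing and series cannot be fully told apart. The alternatives were DESeq2 1.42.0 (its size factors in edgeR, and its Wald test), no filter, a replicate block, a term for the 2 series of library numbers, a fit of the compared groups alone, and fits without single libraries. Fits without the library that stood apart that also used the block or DESeq2 were added after seeing the data.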

Additional observations from a re-analysis of the deposited data

Results flagged for a closer look

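The TGFb response of 7 named list genes differed between the lines in a test of the difference itself (edgeR, adjusted over all genes). This test was added after seeing the data. It was read only for list genes named because TGFb changed them in either line, so that 7 is no share of whole lists. The share of all tested genes that differed is not given here. Values are log2 responses, MDCK-NBL2 minus MDCK-II. NTN4, a netrin, differed by 2.70, with 0.39 in MDCK-NBL2 and -2.30 in MDCK-II (adjusted p = 0.00195). MAP2 differed by 1.90, with 1.96 in MDCK-NBL2 and 0.06 in MDCK-II (adjusted p = 0.0390). DCLK1 differed by 2.33, with 2.47 in MDCK-NBL2 and 0.13 in MDCK-II (adjusted p = 0.0309). PDGFRA, a receptor of mesenchymal cells, differed by -3.83, with -0.33 in MDCK-NBL2 and 3.51 in MDCK-II (adjusted p = 0.0268). TGFB2 differed by -1.40, with 0.84 in MDCK-NBL2 and 2.24 in MDCK-II (adjusted p = 0.0115). PMEPA1 differed by -2.10, with 0.87 in MDCK-NBL2 and 2.97 in MDCK-II (adjusted p = 0.0288), and by -0.93 without the MDCK-NBL2 untreated day 4 replicate 2. EPCAM differed by -1.24, with -1.30 in MDCK-NBL2 and -0.05 in MDCK-II (adjusted p = 0.0167). Without that library all 7 were still called, with adjusted p-values of 0.000645 to 0.00815. Without it 6 others of these named genes were called too: DPYSL3, LHX1, STMN1, MAP1S, UNC5B and SOX2, with adjusted p-values of 0.00196 to 0.0476.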

How the results depend on the processing

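With siPRRX1, C1QL1 stayed called and lower in all 17 alternatives (-3.46 to -2.80, adjusted p 2.59e-08 to 0.0345). With only the groups compared MAP1B (-0.99) and NPTX2 (-0.70) became called, and with the replicate block there MAP1B (-0.97), NPTX2 (-0.69) and STMND1 (-0.73). Of all tested genes these fits called 10.3% and, with the block, 22.5%. The block over all libraries changed no call of the 4 genes. The 249 genes called became 163 with no filter, 472 in DESeq2, 951 in DESeq2 without the untreated MDCK-NBL2 replicate 2 of day 4, 823 without it and with the block, 1159 with only the groups compared, and 2528 with the block there. Fits that left out libraries called 54 to 700 and gave -1.19 to -0.71 for MAP1B, -0.81 to -0.59 for NPTX2 and -1.11 to -0.31 for STMND1.

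For TGFb in MDCK-II, C1QL1 was at 2.49 without that library, alone or with the day 0 replicate 1 that stood apart. It was at 2.54 without that library and with the block, at 2.52 in DESeq2 and at 2.56 in DESeq2 without that library. No call is taken from these values, since the gene passed the filter through MDCK-NBL2 libraries with TGFb. Fits that left out libraries gave 2.59 to 3.23 for MAP1B, 3.42 to 4.04 for NPTX2 and 1.69 to 2.94 for C1QL1, and called 1257 to 3862 genes instead of 2626, or 4166 with the block. C1QL1 was not tested with only the groups compared.

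For the days in MDCK-II, NPTX2 became called without both libraries (-0.98) and in DESeq2 without the day 4 one (-1.01). Fits that left out libraries gave -0.034 to 0.72 for MAP1B and -1.28 to -0.65 for NPTX2, and called 509 to 2133 genes instead of 1223. The count was 2589 without the day 4 library and with the block, 2476 in DESeq2 without it, and 496 with only the groups compared and the block.

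Between siCTR and TGFb alone the signs of uncalled values turned. STMND1 was at -0.0061 with the block, -0.016 with the block without the day 4 library and -0.0036 with the block in only these groups, and NPTX2 was at -0.035 with the number series as a term. Fits that left out libraries gave -0.16 to 0.35 for MAP1B, -0.12 to 0.23 for NPTX2, -0.52 to 0.42 for C1QL1 and -0.41 to 0.39 for STMND1. All 17 alternatives called 0 genes.

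For TGFb in MDCK-NBL2 the fits that left out libraries gave 4.98 to 10.01 for MAP1B, 3.90 to 9.83 for NPTX2, 5.22 to 7.98 for C1QL1 and 6.30 to 10.9 for STMND1, the highest each without replicate 2 of the untreated day 4 group. The 5525 genes called became 510 with only the groups compared and 40 with the block there. The cause of these shifts was not tested. Depth limits C1QL1 in MDCK-II, which rests on 28 counts with TGFb and 5 untreated.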

Other observations

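The genes next to the 4 on the dog chromosomes were looked up after the data were seen, with 2 on each side by gene order in RefSeq's assembly UU_Cfam_GSD_1.0. Of 16 neighbours 15 were in the table and 13 were tested. With TGFb in MDCK-NBL2 2 of the 13 rose and 3 fell, where 21% of all tested genes rose and 23.4% fell. Values of the neighbours without the untreated library that stood apart are not given here. TMEM130, beside NPTX2, rose to 3.35 CPM with TGFb, against 0.631 CPM untreated (log2 fold change 2.32, edgeR adjusted p = 0.000832). CAP2, beside STMND1 and known to bind actin, rose to 1.34 CPM with TGFb, against 0.0887 CPM untreated (log2 fold change 3.37, edgeR adjusted p = 0.0374). PTCD2 (-0.60, beside MAP1B), BAIAP2L1 (-0.87, beside NPTX2) and KIF18B (-5.02, beside C1QL1) were the 3 that fell.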
